A study of Homo sapiens with 8 samples.

Results

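Cells make the 4 DNA precursors, the deoxynucleoside triphosphates (dNTPs), with a small set of enzymes, and 9 genes of that set are described here: RRM1, RRM2, TYMS, DTYMK, DUT, TK1, TK2, DCK and CDA. They were picked out by symbol, as the rows of the expression tables whose gene identifiers map to these symbols, and they are 9 of 58302 genes in the tables. The choice of these 9 was made with earlier results of these data known. Expression was measured by RNA sequencing of poly(A)-selected RNA in SK-Hep1, an established human cell line. Its levels of cell type markers are given below. The cells were SLC29A2-expressing cells, which carry an equilibrative nucleoside transporter, or mock control cells. Each kind of cell was given dipyridamole with sorafenib, dipyridamole, sorafenib, or the treatment labelled control, which gave 8 libraries with 1 library per condition. Dipyridamole blocks nucleoside transporters and phosphodiesterases, and sorafenib inhibits several kinases. Doses, treatment times, the vehicle of the control treatment, and how SLC29A2 was introduced and whether the cells are 1 clone were not stated in the sources used here.

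Ribonucleotide reductase converts ribonucleotides to deoxyribonucleotides and sets the pace of dNTP supply. It pairs the large subunit encoded by RRM1 with a small subunit, which is encoded by RRM2 in dividing cells and by the p53 target RRM2B in resting or damaged cells. Thymidine triphosphate needs further steps. DUT hydrolyses dUTP to dUMP, thymidylate synthase (TYMS) methylates dUMP to dTMP with a folate as the donor, and DTYMK phosphorylates dTMP. Salvage enzymes reuse nucleosides instead: TK1 in the cytosol and TK2 in mitochondria phosphorylate thymidine, DCK phosphorylates deoxycytidine, and CDA deaminates cytidine and deoxycytidine. RRM2, TK1 and TYMS are textbook genes of S phase, while TK2 is expressed through the cell cycle.

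The 9 genes are protein-coding and lie on 8 chromosomes in GENCODE 29 on GRCh38. RRM2 (ENSG00000171848) spans chr2:10120698-10131419 on the plus strand and DTYMK chr2:241675742-241686991 on the minus strand. RRM1 spans chr11:4094707-4138876, TYMS chr18:657604-673578, DUT chr15:48331011-48343373, DCK chr4:70992538-71030914 and CDA chr1:20588948-20618908, all on the plus strand. TK1 spans chr17:78174075-78187233 and TK2 chr16:66508003-66552544, both on the minus strand.

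Promoter windows of 300 bases, from 250 before to 50 after each annotated start, were taken from RefSeq on GRCh38.p14, and all 9 genes had at least 1, with 14 windows in total. Both strands were searched for the CCAAT box (CCAAT) and for 4 words of the E2F site (TTTGGCGC, TTTCCCGC, TTTGCCGC and TTTCGCGC), none of which overlaps another match in these windows. Of 35116 promoter windows in the same table, 34.61% held at least 1 CCAAT, 10.75% at least 2 and 3.258% at least 3, while 3.31% held at least 1 of the E2F words and 0.15% at least 2. The windows below are shown because they belong to the gene with the largest difference (RRM2), to the pair of thymidine pathway kinases with repeated CCAAT boxes (TK1 and DTYMK), to the gene with 2 E2F words (DUT) and to the gene whose level ran the other way (CDA). They are written 5′ to 3′ on the strand of the gene, with the matches in capitals.
RRM2, chr2:10122489-10122788, plus strand: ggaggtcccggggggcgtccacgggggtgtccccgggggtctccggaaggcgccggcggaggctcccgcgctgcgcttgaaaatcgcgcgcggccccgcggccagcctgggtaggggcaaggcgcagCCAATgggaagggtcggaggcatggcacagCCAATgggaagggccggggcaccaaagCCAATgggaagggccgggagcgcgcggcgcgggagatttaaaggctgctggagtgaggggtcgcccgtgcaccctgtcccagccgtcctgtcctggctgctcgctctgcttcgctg
TK1, chr17:78187003-78187302, minus strand: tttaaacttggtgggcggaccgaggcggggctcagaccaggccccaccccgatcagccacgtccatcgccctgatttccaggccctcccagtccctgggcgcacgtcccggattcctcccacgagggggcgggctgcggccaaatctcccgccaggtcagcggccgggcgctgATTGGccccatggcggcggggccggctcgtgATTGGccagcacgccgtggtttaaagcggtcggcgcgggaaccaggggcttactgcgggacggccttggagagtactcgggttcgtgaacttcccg
DTYMK, chr2:241686766-241687065, minus strand: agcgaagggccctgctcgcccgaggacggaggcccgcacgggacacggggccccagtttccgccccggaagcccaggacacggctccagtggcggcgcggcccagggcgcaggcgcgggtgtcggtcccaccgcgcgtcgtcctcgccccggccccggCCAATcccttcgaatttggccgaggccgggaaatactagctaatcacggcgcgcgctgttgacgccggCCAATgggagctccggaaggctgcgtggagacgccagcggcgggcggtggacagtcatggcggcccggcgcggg
DUT, chr15:48331947-48332246, plus strand: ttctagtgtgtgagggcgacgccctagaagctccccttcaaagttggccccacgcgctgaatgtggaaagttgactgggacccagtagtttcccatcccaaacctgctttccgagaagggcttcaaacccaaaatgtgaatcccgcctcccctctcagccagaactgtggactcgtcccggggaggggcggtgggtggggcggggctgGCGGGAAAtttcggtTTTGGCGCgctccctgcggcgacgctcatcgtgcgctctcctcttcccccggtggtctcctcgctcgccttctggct
CDA, chr1:20588847-20589146, plus strand: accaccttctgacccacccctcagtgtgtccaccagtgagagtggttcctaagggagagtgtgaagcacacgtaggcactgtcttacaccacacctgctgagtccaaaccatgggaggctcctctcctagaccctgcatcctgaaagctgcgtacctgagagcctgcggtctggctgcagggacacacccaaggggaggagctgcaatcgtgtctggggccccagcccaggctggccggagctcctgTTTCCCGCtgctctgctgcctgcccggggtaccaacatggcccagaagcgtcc
The RRM2 window held 3 CCAAT boxes in the forward orientation, the TK1 window 2 in the reverse orientation and the DTYMK window 2 in the forward orientation. The DUT window held 2 E2F words close together, and the CDA window held 1. RRM1 had 1 CCAAT box, and TYMS and DCK had 1 E2F word each. The TK2 window held neither, nor did the other TK1 window and the other 3 DUT windows, while the other RRM2 window held 1 CCAAT box. Over the 14 windows 5 held a CCAAT box and 4 an E2F word, and the 5 printed are all among those with a match. These matches describe the letters of the reference sequence, and no binding was measured.

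The libraries held 14.07 to 16.69 M reads. Values are FPKM, the deposited unit, which counts fragments per kilobase of transcript scaled to library size, and for a 2 kb gene 1 read was worth 0.03 to 0.0355 FPKM. All 9 genes passed the filter of a mean of at least 1 FPKM, as did 13899 genes in all. The lowest read number behind any value of the 9 genes was 68 (TYMS) and the highest 3982 (TK1). SLC29A2 itself was at 1477 to 3039.7 FPKM in SLC29A2 cells, against 7.11 to 7.81 FPKM in control cells. The 2 control-cell libraries given dipyridamole stood apart, with 2.48% and 2.68% of reads in non-coding genes against 1.6% to 1.93% in the other 6. Results are therefore also given without them where a value changed. The dipyridamole difference then comes from the SLC29A2-cell pairs alone and describes that kind of cell, with fewer residual degrees of freedom. Mitochondrial genes took 2.25% of reads in SLC29A2 cells and 1.88% in control cells with both drugs, against 3.04% to 5.74% in the other 6 libraries, with the control-cell dipyridamole library highest. The part of these shares in the results was not tested. Hepatocyte markers were nearly absent, with 2 of 10 at a mean of at least 1 FPKM and APOB, TTR and FGB at 0. Of the endothelial list 3 of 10 reached that level (ENG, CAV1 and TIE1), while PECAM1 and CDH5 were at most at 0.259 and 0.188 FPKM.

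With no replicate of any condition, each factor was tested by limma in an additive model of all 8 libraries, on log2(FPKM + 1) values and with Benjamini-Hochberg adjustment over the 13899 genes. Each factor is then carried by 4 pairs of libraries that differ in that factor alone. The p-values measure only the spread between these 8 libraries, with any interaction of the factors inside that spread. A gene is called changed at an adjusted p under 0.05, and ± is the standard error of the fit.

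With dipyridamole RRM2, RRM1, TYMS, TK1, DUT and DTYMK fell and CDA rose, so that 7 of the 9 genes were called, 6 lower and 1 higher. Over all genes 30.0% were called, 17.5% higher and 12.6% lower. The median of the 9 genes was -0.98 on the log2(FPKM + 1) scale, against 0.07 for all genes tested. For 6 of the 9 genes, all lower, the 4 libraries with dipyridamole did not overlap the 4 without it, a pattern that 11.7% of all genes showed in that direction and 13.0% in the other.

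RRM2 had the widest range of the 9 genes, 17.7-fold between its lowest and highest library. In SLC29A2 cells RRM2 was at 7.88 FPKM with both drugs, 19.95 with dipyridamole, 63.2 with sorafenib and 136.3 with the control treatment. In control cells it was at 8.96 FPKM with both drugs, 22.9 with dipyridamole, 59.4 with sorafenib and 139.7 with the control treatment. The 4 treatments kept this order in both kinds of cell and did not overlap. The dipyridamole difference of RRM2 was -2.68 ± 0.10 on the log2(FPKM + 1) scale (limma, adjusted p = 3.4e-06), the second largest fall and the second smallest p of all genes tested. In the 4 pairs the level with dipyridamole was 0.125 to 0.164 times the level without it. In every fit that left out 1 library the difference lay between -2.72 and -2.63. The only protein-coding gene that overlaps RRM2 on its strand, AC007240.1, reached at most 0.489 FPKM, and the RRM2 pseudogenes at most 0.103 FPKM.

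RRM1, the large subunit, fell less. In SLC29A2 cells RRM1 was at 37.2 FPKM with both drugs, 28.7 with dipyridamole, 68.4 with sorafenib and 73.2 with the control treatment. In control cells it was at 31.5 FPKM with both drugs, 31.0 with dipyridamole, 67.8 with sorafenib and 83.7 with the control treatment. All 4 libraries with dipyridamole were below all 4 without it, and the difference was -1.17 ± 0.12 (limma, adjusted p = 0.000298). The alternative small subunit RRM2B was not called with dipyridamole (0.06 ± 0.11, limma, adjusted p = 0.724), with 23.6 to 39.7 FPKM across the dipyridamole libraries and 24.9 to 36.7 FPKM across those without.

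Ratios of FPKM, which are values per length, compare the subunits within a library and are given with no test. RRM2 to RRM1 was 0.212 with both drugs, 0.696 with dipyridamole, 0.924 with sorafenib and 1.86 with the control treatment in SLC29A2 cells. In control cells this ratio was 0.285 with both drugs, 0.740 with dipyridamole, 0.875 with sorafenib and 1.67 with the control treatment. RRM2 to RRM2B was 0.224 with both drugs, 0.845 with dipyridamole, 1.9997 with sorafenib and 4.84 with the control treatment in SLC29A2 cells. The control cells had 0.225 with both drugs, 0.788 with dipyridamole, 1.62 with sorafenib and 5.60 with the control treatment. In FPKM RRM2B was above RRM2 in all 4 libraries with dipyridamole and below it in all 4 without. A ratio near 1 depends on the transcript lengths used, means over annotated transcripts of 1492 bases for RRM2 and 1303 for RRM2B. With dipyridamole alone the reads were 481 for RRM2 and 533 for RRM2B in control cells. In SLC29A2 cells they were 482 for RRM2 and 498 for RRM2B.

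**Figure D1:**
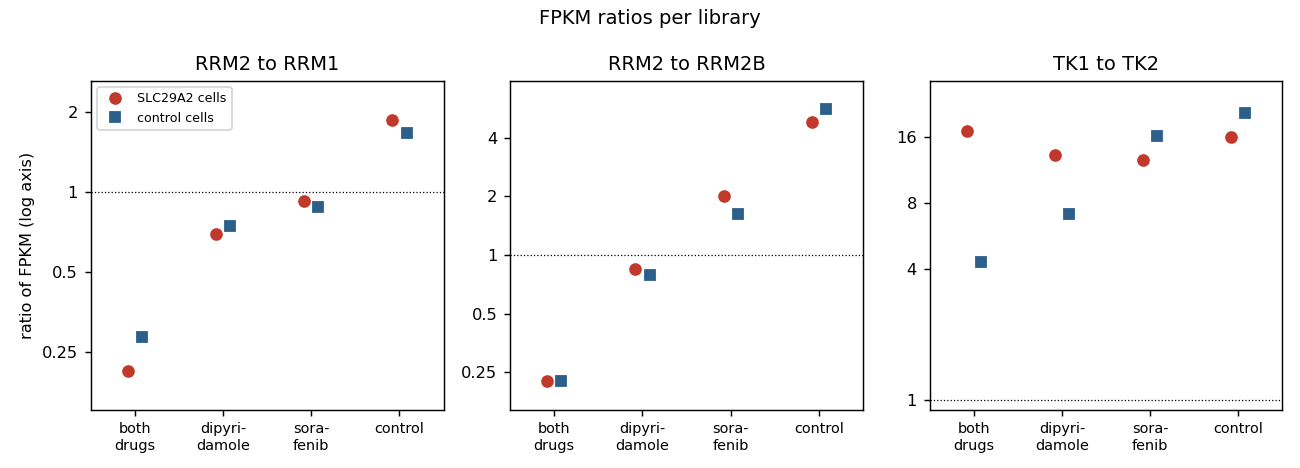
FPKM ratios of RRM2 to RRM1, RRM2 to RRM2B and TK1 to TK2 (log axis) in each of the 8 libraries, by treatment. SLC29A2 cells are circles and control cells are squares. The dotted line marks a ratio of 1, and the position of a point relative to it depends on the transcript lengths used. RRM2 to RRM2B lay at 0.224 and 0.225 with both drugs, against 4.84 and 5.60 with the control treatment, while TK1 to TK2 differed between the kinds of cell under dipyridamole.

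Genes of the thymidylate branch were lower with dipyridamole as well. TYMS in SLC29A2 cells was at 5.25 FPKM with both drugs, 4.18 with dipyridamole, 13.2 with sorafenib and 16.5 with the control treatment. In control cells TYMS was at 6.18 FPKM with both drugs, 5.87 with dipyridamole, 16.7 with sorafenib and 17.0 with the control treatment. The groups with and without dipyridamole did not overlap, and the difference was -1.41 ± 0.13 (limma, adjusted p = 0.000158). TYMS shares 3255 bases with ENOSF1 on the opposite strand, which was at 16.7 to 31.5 FPKM, and no strand setting is stated, so reads of the shared stretch cannot be assigned. ENOSF1 was not called (0.37 ± 0.15, limma, adjusted p = 0.102). In control cells ENOSF1 with dipyridamole was at 1.70 times its level without it, and at 1.69 times where sorafenib was present. In SLC29A2 cells these ratios were 1.006 and 0.998.

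DUT, which keeps uracil out of the dNTP pool, was at 19.1 FPKM with both drugs, 20.3 with dipyridamole, 45.4 with sorafenib and 49.6 with the control treatment in SLC29A2 cells. In control cells DUT was at 29.4 FPKM with both drugs, 28.4 with dipyridamole, 47.5 with sorafenib and 49.99 with the control treatment. Every dipyridamole library was below every other library, and the difference was -0.98 ± 0.12 (limma, adjusted p = 0.000726). Sorafenib left DUT within a narrow band, since its 4 sorafenib pairs ran from -0.13 to 0.05 on the log2 scale.

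DTYMK, the kinase that both the synthesis and the salvage of thymidylate pass through, was at 116.1 FPKM with both drugs, 63.6 with dipyridamole, 132.9 with sorafenib and 144.6 with the control treatment in SLC29A2 cells. In control cells DTYMK was at 95.1 FPKM with both drugs, 66.9 with dipyridamole, 130.5 with sorafenib and 153.5 with the control treatment. The lowest values were those with dipyridamole alone, and the groups with and without dipyridamole did not overlap. The difference was -0.75 ± 0.17 (limma, adjusted p = 0.012). Without the 2 control-cell libraries given dipyridamole it was -0.68 and not called (limma, adjusted p = 0.124).

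TK1, the thymidine kinase of the cytosol, had the highest mean of the 9 genes, 148.8 FPKM over the 8 libraries. In SLC29A2 cells TK1 was at 157.0 FPKM with both drugs, 98.0 with dipyridamole, 166.3 with sorafenib and 191.7 with the control treatment. In control cells it was at 70.8 FPKM with both drugs, 65.7 with dipyridamole, 198.6 with sorafenib and 242.7 with the control treatment. The groups with and without dipyridamole did not overlap, although the SLC29A2 library with both drugs came close to the one with sorafenib. The dipyridamole difference of TK1 was -1.10 ± 0.24 (limma, adjusted p = 0.01), and the 4 pairs ran from -1.87 to -0.08. Without the 2 control-cell dipyridamole libraries the difference was -0.52 and not called (limma, adjusted p = 0.174). It then rests on the SLC29A2-cell pairs alone, at -0.96 without sorafenib and -0.08 with it.

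CDA, the deaminase of cytidine and deoxycytidine, was the only one of the 9 that rose with dipyridamole. In SLC29A2 cells CDA was at 114.1 FPKM with both drugs, 98.1 with dipyridamole, 64.2 with sorafenib and 35.9 with the control treatment. In control cells it was at 100.3 FPKM with both drugs, 66.8 with dipyridamole, 93.2 with sorafenib and 51.4 with the control treatment. The groups overlapped, since the control-cell library with sorafenib lay above the control-cell library with dipyridamole. The difference was 0.68 ± 0.19 (limma, adjusted p = 0.026), higher in 4 of 4 pairs. The call was lost with size-factor scaling (0.59, limma, adjusted p = 0.0808) and without any 1 of the 4 SLC29A2-cell libraries (0.47 to 0.67, limma, adjusted p up to 0.0797). With no filter on low values TK1, DTYMK and CDA were not called (limma, adjusted p = 0.0596, 0.0588 and 0.101).

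DCK and TK2, the salvage kinases that serve deoxycytidine and the mitochondrial pool, were not called with dipyridamole. DCK in SLC29A2 cells was at 11.1 FPKM with both drugs, 7.16 with dipyridamole, 12.1 with sorafenib and 16.1 with the control treatment, and in control cells it was at 15.7 FPKM with both drugs, 8.51 with dipyridamole, 10.98 with sorafenib and 13.8 with the control treatment. Its lowest values were the 2 with dipyridamole alone, and the overall difference was -0.33 ± 0.22 (limma, adjusted p = 0.284). DCK shares 29912 bases with MOB1B on the same strand, at 15.8 to 23.5 FPKM, so reads may have been split between these genes or dropped. TK2 in SLC29A2 cells was at 9.14 FPKM with both drugs, 7.35 with dipyridamole, 13.3 with sorafenib and 11.9 with the control treatment, and in control cells it was at 16.6 FPKM with both drugs, 9.22 with dipyridamole, 12.2 with sorafenib and 11.7 with the control treatment. The control-cell library with both drugs was the highest of the 8 for TK2, and the difference was -0.26 ± 0.17 (limma, adjusted p = 0.292). Without the 2 control-cell dipyridamole libraries the TK2 difference was -0.56 and called (limma, adjusted p = 0.0367). DCK was called in the model with all pairwise interactions (-0.33, limma, adjusted p = 0.011). That model leaves few residual degrees of freedom and called 7411 of the 13899 genes with dipyridamole.

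**Figure D2:**
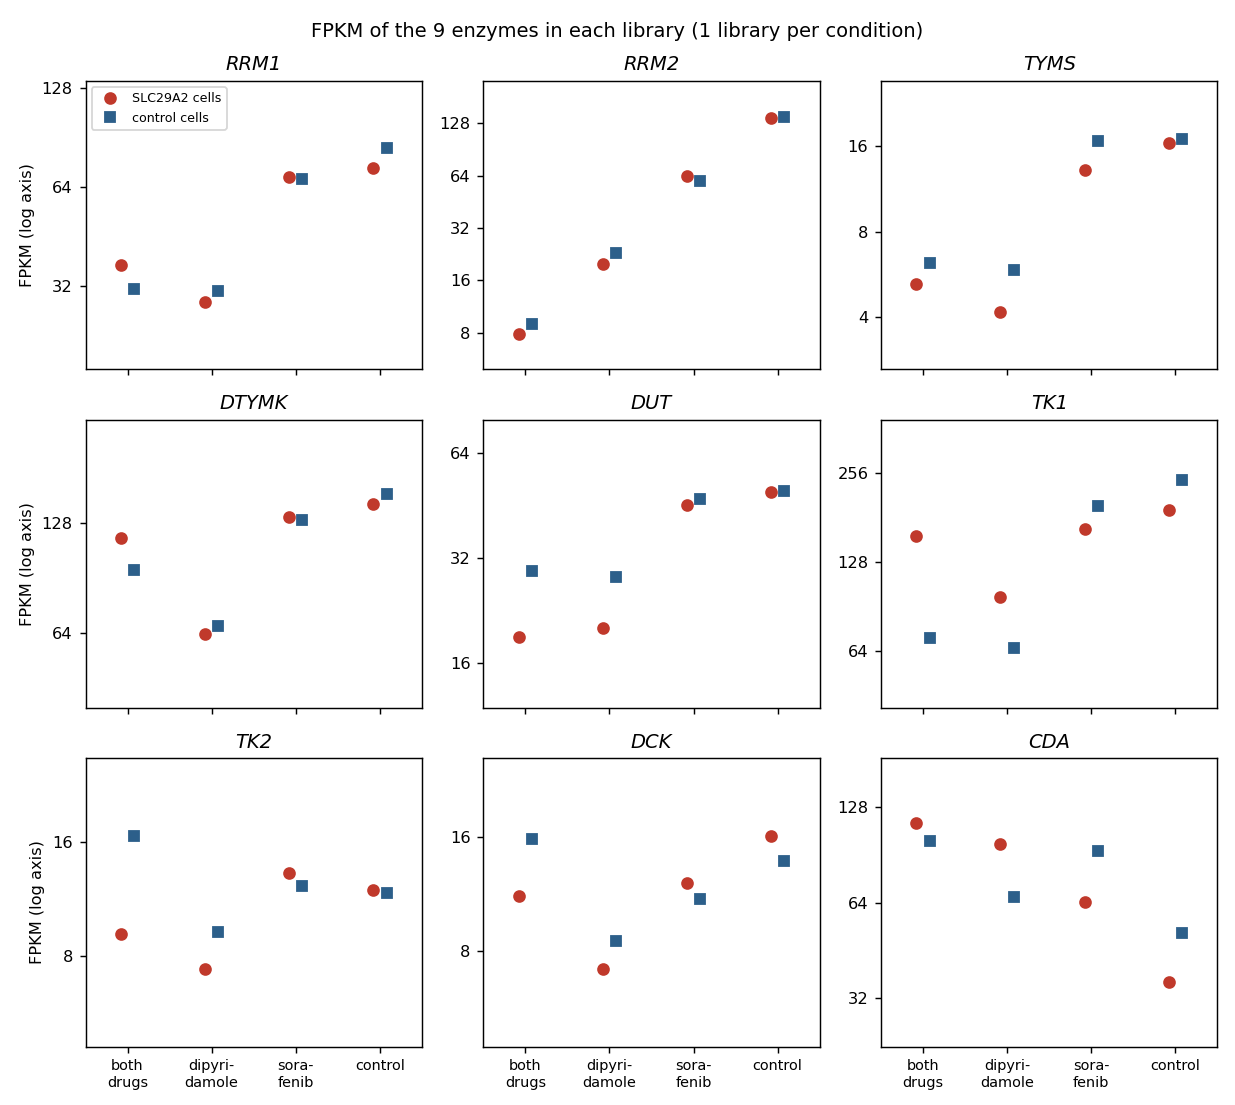
FPKM of the 9 enzyme genes (log axes, 1 panel per gene) by treatment, with SLC29A2 cells as circles and control cells as squares, 1 library per point. RRM2 falls in steps across the treatments between 139.7 and 7.88 FPKM, RRM1, TYMS and DUT separate by dipyridamole alone, and CDA runs the other way.

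With the control treatment the order of the levels was TK1, DTYMK, RRM2 and RRM1 from the top in both kinds of cell, with TYMS, DCK and TK2 at the bottom. With both drugs RRM2 was eighth and TYMS ninth in both kinds of cell. With 1 library per condition there is no spread between replicates of a condition, and neighbours in this order were not tested. The order is by FPKM and depends on the transcript lengths used. By reads RRM2 was above DTYMK with the control treatment, at 3478 against 2032 in control cells and 3127 against 1764 in SLC29A2 cells.

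With sorafenib RRM2 fell, and no other of the 9 genes was called. The RRM2 difference was -1.20 ± 0.10 (limma, adjusted p = 0.0025), lower in 4 of 4 pairs, with the pairs between -1.26 and -1.10. With sorafenib 1 of the 9 genes was called, while 8.11% of all genes were, 5.94% higher and 2.17% lower. The median of the 9 genes was 0.07, against 0.09 for all genes. RRM1 (-0.0015 ± 0.12) and TYMS (0.0023 ± 0.13) were close to 0, and their 4 pairs were 2 lower and 2 higher. CDA was higher in 4 of 4 pairs but missed the threshold (0.61 ± 0.19, limma, adjusted p = 0.0789), as did TK2 (0.31 ± 0.17, limma, adjusted p = 0.283). CDA was called without the SLC29A2-cell library given dipyridamole (0.83, limma, adjusted p = 0.0442). RRM2B rose by 0.42 ± 0.11 (limma, adjusted p = 0.0498), higher in 4 of 4 pairs. That call was lost with size factors (0.31, limma, adjusted p = 0.105) and when any library other than the SLC29A2-cell control treatment was left out (limma, adjusted p up to 0.148). A pseudocount of 0.1, no filter on low values and no mean-variance trend also ended it (limma, adjusted p = 0.0511, 0.122 and 0.0743). So did leaving out both control-cell dipyridamole libraries (limma, adjusted p = 0.113).

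**Figure D3:**
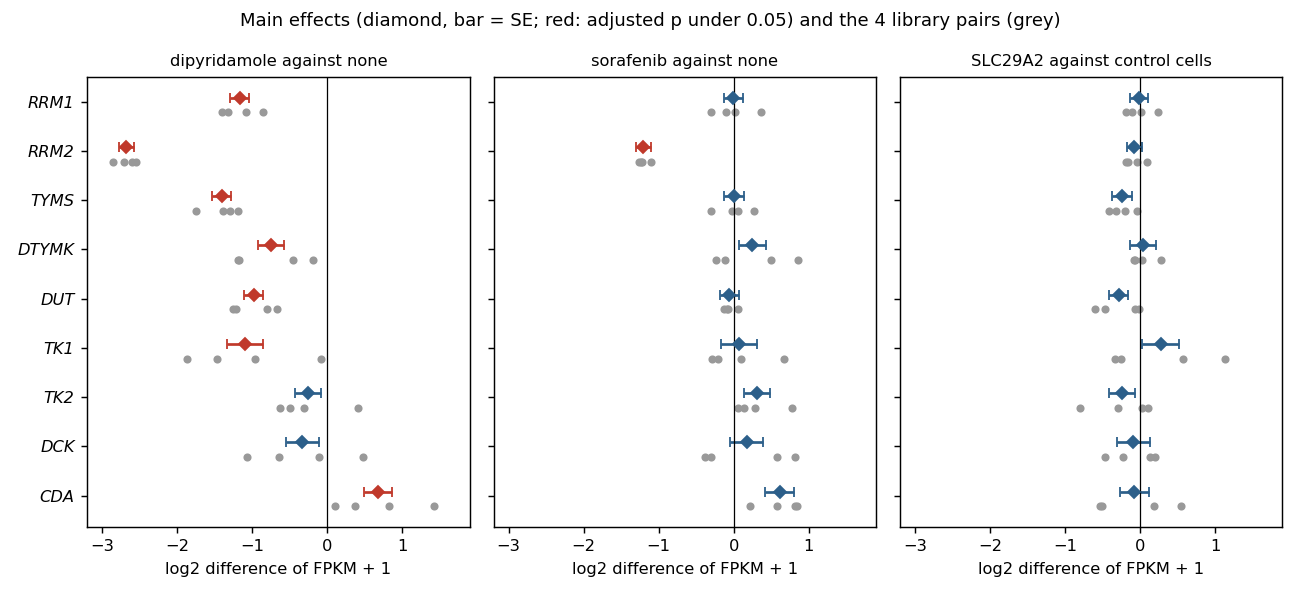
Fitted main effects of dipyridamole, sorafenib and SLC29A2 expression on each gene (diamonds, in log2 units of FPKM + 1, bars are standard errors, red where the adjusted p is under 0.05), with the 4 library pairs as grey points. Dipyridamole moved 7 genes past the threshold, sorafenib moved RRM2 at -1.20, and SLC29A2 expression moved none.

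The both-drug libraries were also compared directly with the control-treatment libraries, which rests on 2 pairs in a limma fit of cell type and 4 treatments. RRM2 differed by -3.89 ± 0.13 (limma, adjusted p = 5.79e-05), the smallest p and the second largest fall of all genes tested. In FPKM it was 17.3-fold lower in SLC29A2 cells and 15.6-fold lower in control cells. TYMS (-1.41 ± 0.15, adjusted p = 0.000957), RRM1 (-1.17 ± 0.14, adjusted p = 0.00122) and DUT (-1.04 ± 0.17, adjusted p = 0.00435) fell in the same limma fit. DTYMK also fell (-0.50 ± 0.14, limma, adjusted p = 0.0256), and CDA rose by 1.29 ± 0.27 (limma, adjusted p = 0.00942). Outside the 9, RRM2B rose by 0.48 ± 0.15 (limma, adjusted p = 0.0369) and DGUOK by 0.62 ± 0.15 (limma, adjusted p = 0.0156). With 1 library left out RRM2B kept this call in 3 of 8 fits and DGUOK in 5 of 8. With 6 of the 9 genes called, 5 lower and 1 higher, the share stood beside 38.7% over all genes, 25.2% higher and 13.5% lower. TK1 missed the threshold (-1.03 ± 0.34, limma, adjusted p = 0.0507), with a ratio of 0.819 in SLC29A2 cells and 0.292 in control cells. It was called with a filter at a mean of 5 FPKM (limma, adjusted p = 0.0471), with size factors (-1.24, limma, adjusted p = 0.0409) and with voom (adjusted p = 0.0307). DTYMK lost its call without the control-cell control-treatment, sorafenib or both-drug library or the SLC29A2-cell control-treatment library (limma, adjusted p up to 0.184). CDA lost it without the SLC29A2-cell control-treatment or both-drug library (limma, adjusted p up to 0.0647). TK1 was called without the SLC29A2-cell control-treatment, sorafenib or both-drug library or the control-cell sorafenib library, and its value ran from -1.60 to -0.45 over the 8 fits. Without the 2 control-cell dipyridamole libraries all 9 genes were called, 8 lower and 1 higher, beside 8439 of all genes, from 1 pair in a fit with 1 residual degree of freedom. There TK1 was -0.31 (limma, adjusted p = 0.00297), DCK -0.47 (limma, adjusted p = 0.00838) and TK2 -0.37 (limma, adjusted p = 0.0281).

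The sorafenib difference was also read separately with and without dipyridamole. For RRM2 it was -1.24 with dipyridamole and -1.10 without it in SLC29A2 cells, and in control cells it was -1.26 with dipyridamole and -1.22 without it. For RRM1, TYMS, TK1, DCK and DTYMK, both sorafenib pairs were higher in the presence of dipyridamole and both were lower in its absence. This pattern was shown by 11.1% of all genes, while 5.28% showed the opposite one. Some of the differences were near 0 in control cells, at 0.02 for RRM1 and 0.06 for TYMS with dipyridamole. The TYMS difference without dipyridamole was -0.02 in control cells. With size factors 2 of the 9, DCK and DTYMK, had the pattern (7.86% of all genes, and 8.14% the opposite one), since RRM1 (-0.20), TYMS (-0.13) and TK1 (-0.12) were then lower in the control-cell pair with dipyridamole. As deposited, the DCK differences with dipyridamole present were 0.57 in SLC29A2 cells and 0.82 in control cells, against -0.38 in SLC29A2 cells and -0.30 in control cells with it absent. For DTYMK they were 0.86 in SLC29A2 cells and 0.50 in control cells with dipyridamole present, against -0.12 in SLC29A2 cells and -0.23 in control cells with it absent. None of the 9 genes passed the test of the sorafenib by dipyridamole interaction, which called 0.0863% of all genes (12). At an unadjusted p under 0.05 there were 2 of the 9 and 1839 of all genes. The estimates were 1.04 ± 0.27 for DCK (limma, adjusted p = 0.239), 0.86 ± 0.19 for DTYMK (limma, adjusted p = 0.209) and -0.09 ± 0.18 for RRM2 (limma, adjusted p = 0.866). Without the 2 control-cell dipyridamole libraries 5 of the 9 passed, in a fit with 1 residual degree of freedom that called 3514 genes.

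**Figure D4:**
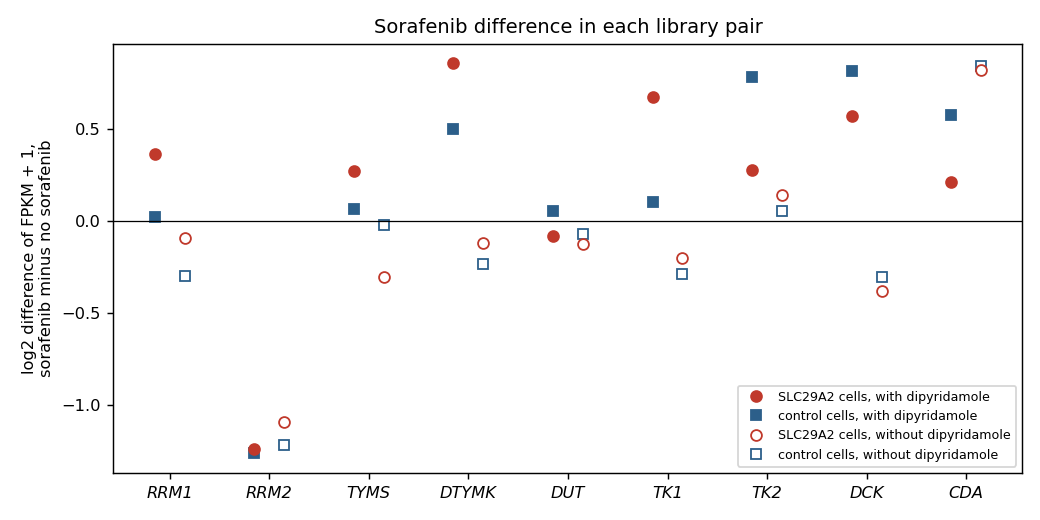
Difference between sorafenib and no sorafenib in log2 units of FPKM + 1 for each of the 9 genes, in library pairs with dipyridamole (filled, left) and without it (open, right), with SLC29A2 cells as circles and control cells as squares. RRM2 lies between -1.26 and -1.10 in all 4 pairs. The filled points of RRM1, TYMS, DTYMK, TK1 and DCK lie above 0 and their open points below 0, some of them close to it. With size factors this pattern holds for DCK and DTYMK.

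For SLC29A2 expression 0 of the 9 genes were called, by limma and by voom. Over all genes 0.00719% were called, which is SLC29A2 alone. At an unadjusted p under 0.05 there were 1 of the 9, DUT (-0.28 ± 0.12, limma, adjusted p = 0.965), and 546 of all genes. RRM2 differed by -0.08 ± 0.10 (limma, adjusted p = 0.965) and TYMS by -0.24 ± 0.13 (limma, adjusted p = 0.965). The SLC29A2 by dipyridamole interaction likewise called 0 of the 9 and 0.0% of all genes, with 3 of the 9 and 2756 of all genes at an unadjusted p under 0.05. The estimates with the 4 smallest p among the 9 were 1.15 ± 0.32 for TK1 (limma, adjusted p = 0.141), 0.88 ± 0.24 for CDA (limma, adjusted p = 0.138), -0.50 ± 0.16 for DUT (limma, adjusted p = 0.165) and -0.61 ± 0.27 for TK2 (limma, adjusted p = 0.27). That interaction rests in part on the control-cell libraries given dipyridamole, which stood apart in their non-coding share of reads. It could not be estimated without them. The TK1 to TK2 ratios of control cells under dipyridamole come from the same libraries. The TK1 to TK2 ratio was 17.2 with both drugs and 13.3 with dipyridamole in SLC29A2 cells, against 4.27 with both drugs and 7.13 with dipyridamole in control cells. Without dipyridamole the ratio was 12.6 with sorafenib and 16.1 with the control treatment in SLC29A2 cells, against 16.2 with sorafenib and 20.7 with the control treatment in control cells. The SLC29A2 by sorafenib interaction also called 0 of the 9 and 0.0% of all genes, with 0 of the 9 and 100 of all genes at an unadjusted p under 0.05.

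The folate genes that feed TYMS moved in part with it. Over all genes tested, 17.5% were called higher and 12.6% lower with dipyridamole. Of 8 genes of thymidylate and folate supply, 5 fell and 2 rose with dipyridamole, with a median of -0.61 (4 lower and 1 higher by limma without the 2 control-cell dipyridamole libraries). MTHFD1, which interconverts the one-carbon forms of folate in the cytosol, fell by 0.86 ± 0.11 (limma, adjusted p = 0.000651), as did the folate carrier gene SLC19A1 (-0.82 ± 0.11, limma, adjusted p = 0.00087) and SHMT1 (-0.76 ± 0.10, limma, adjusted p = 0.000999).

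Genes that use up or clean the pool were split. Beside the counts below stand the shares over all genes with dipyridamole, 17.5% higher and 12.6% lower. Of 11 genes of dNTP breakdown and pool cleaning, 3 rose and 4 fell with dipyridamole, against 2 higher and 3 lower without the 2 control-cell dipyridamole libraries. UNG, the glycosylase that removes uracil from DNA, fell by 1.03 ± 0.13 (limma, adjusted p = 0.00077), as did DCTPP1 (-0.75 ± 0.17, limma, adjusted p = 0.0105), which hydrolyses nucleoside triphosphates. Leaving out both control-cell libraries given dipyridamole ended the DCTPP1 call (-0.52, limma, adjusted p = 0.0704). SAMHD1, a dNTP hydrolase, was not called (-0.17 ± 0.12, limma, adjusted p = 0.288). Of 5 measured genes of nucleoside breakdown, 2 rose and 1 fell, although TYMP was not called without those libraries (limma, adjusted p = 0.0887). The uridine phosphorylase gene UPP1 rose by 1.53 ± 0.14 (limma, adjusted p = 0.000133), and DPYD, which degrades uracil and thymine, fell by 0.76 ± 0.12 (limma, adjusted p = 0.00199).

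Of the 5 other salvage kinases, 1 rose and 1 fell with dipyridamole, beside 17.5% higher and 12.6% lower over all genes. The same shares stand beside the other lists of this paragraph, and no list was tested against them. ADK, the adenosine kinase, fell by 0.40 ± 0.09 (limma, adjusted p = 0.012), a call lost without the 2 control-cell dipyridamole libraries (limma, adjusted p = 0.0509). DGUOK, the mitochondrial deoxyguanosine kinase, rose by 0.36 ± 0.11 (limma, adjusted p = 0.0393), a call that was lost with size factors (0.27, limma, adjusted p = 0.114) and when any library other than the control-cell dipyridamole one was left out (limma, adjusted p up to 0.15). No filter on low values, no mean-variance trend and voom also ended the DGUOK call (limma, adjusted p = 0.0759, 0.0578 and 0.0512). None of 13 measured nucleoside mono- and diphosphate kinases was called. Of 12 measured genes of mitochondrial DNA and dNTP upkeep, which include DGUOK, 2 rose and 4 fell, with MPV17 at 0.87 ± 0.13 (limma, adjusted p = 0.00189). Without the 2 control-cell dipyridamole libraries 1 of the 12 was called higher and 1 lower, since TFAM (limma, adjusted p = 0.0543), TWNK (limma, adjusted p = 0.0584) and DGUOK were among those that lost their calls. Among 4 measured nucleoside transporters 1 fell (1 lower and 1 higher without those libraries), SLC29A1, the main equilibrative transporter (-0.81 ± 0.13, limma, adjusted p = 0.0024).

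A list of 36 S phase genes, which holds none of the 9, moved in the direction of most of them with dipyridamole. Over all genes, dipyridamole calls were 12.6% lower and 17.5% higher, and sorafenib calls 2.17% lower and 5.94% higher. For both drugs they were 13.5% lower and 25.2% higher. With dipyridamole 32 fell and 0 rose (29 and 0 without the 2 control-cell dipyridamole libraries), with a median of -1.16, among them MCM4 (-1.89 ± 0.13, limma, adjusted p = 4.71e-05), MCM3 (-1.69 ± 0.12, limma, adjusted p = 5.1e-05), PCNA (-1.68 ± 0.11, limma, adjusted p = 4.71e-05) and MCM7 (-1.54 ± 0.10, limma, adjusted p = 4.71e-05). With sorafenib 6 of the 36 fell and 0 rose (3 and 0 without those libraries), with a median of -0.27. The 9 genes had a median of 0.07 there, with RRM2 alone called. Among the 6 was UHRF1 (-0.88 ± 0.14, limma, adjusted p = 0.011). UHRF1 was not called with no filter on low values or without the 2 control-cell dipyridamole libraries (limma, adjusted p = 0.0696 and 0.0678). With both drugs against the control treatment 34 fell and 1 rose. In these bulk libraries fewer cells in S phase and less RNA per cell cannot be told apart, and the part of cell cycle state in the results was not tested.

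**Figure D5:**
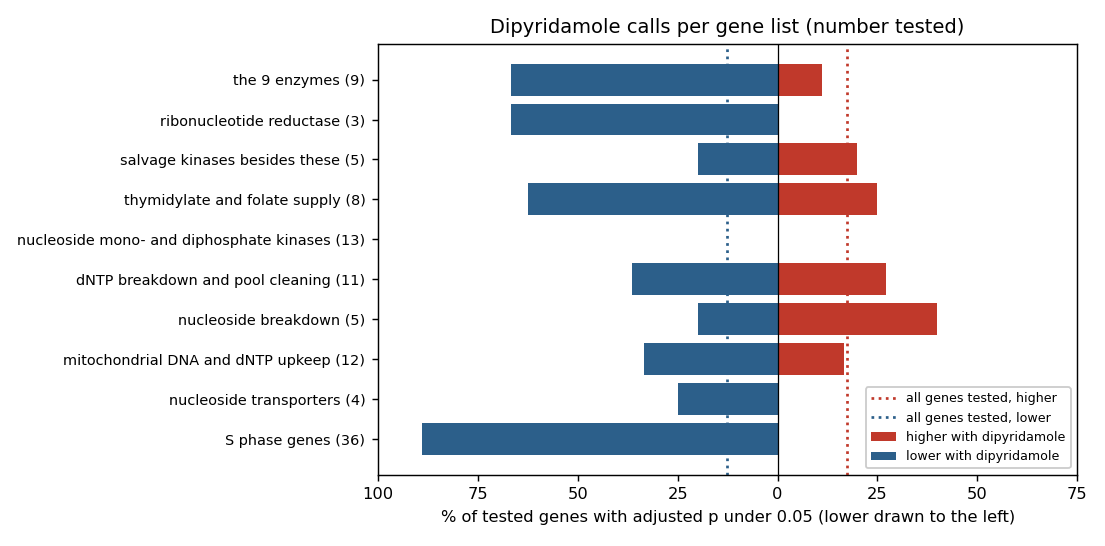
Share of the tested genes of each list called lower (blue, to the left) or higher (red, to the right) with dipyridamole at an adjusted p under 0.05, in percent, with dotted lines for all genes tested (12.6% lower, 17.5% higher). The 9 enzymes, the folate list and the S phase list lean to the left, with 32 of 36 S phase genes lower, and the 13 mono- and diphosphate kinases show no call.

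The summed levels of the epithelial and endothelial marker lists did not overlap between the dipyridamole libraries and the rest, while those of the hepatocyte and leukocyte lists did. Summed over the list, the epithelial markers ran from 743 to 1084 FPKM with dipyridamole, against 2026 to 2785 FPKM without it, with KRT8 and KRT18 the most abundant, 4 of 8 at a mean of at least 1 FPKM, and EPCAM and CDH1 at most at 0.338 and 0.164 FPKM. The endothelial list summed to 152 to 203 FPKM with dipyridamole, against 396 to 464 FPKM without it, most of it CAV1. The hepatocyte list summed to 2.59 to 5.72 FPKM with dipyridamole and 4.57 to 7.27 FPKM without it. The leukocyte list, with 1 of 8 genes at a mean of at least 1 FPKM and CD3E and LYZ at 0, summed to 0.744 to 3.28 FPKM with dipyridamole and 1.22 to 3.72 FPKM without it. The part of these differences in the results on the 9 genes was not tested.

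The 9 genes varied together to different degrees over the 8 libraries. As a description over libraries that share treatments, with no test, RRM1 and TYMS had a Pearson r of 0.97 and TYMS and DUT of 0.97, while RRM2 had 0.89 with RRM1 and 0.89 with TYMS. TK2 and DCK had 0.83 with each other and 0.19 and 0.33 with RRM2. CDA had negative values with all the others, down to -0.84 with RRM2. Outside the 9, the genes most like RRM2 were E2F1 (r = 0.997), XXYLT1 (0.994) and TFDP1 (0.994). For RRM1 they were RACGAP1, FAM83D and GINS1 (0.998 to 0.999), and for TYMS they were UBR7, BARD1 and RDX (0.992 to 0.998). DUT was most like HELLS (0.993). For TK1 the closest gene was HNRNPL (0.979), for TK2 C8orf37 (0.975) and for DCK RPP30 (0.968).

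Scaling moved the split of calls over all genes. With size factors in place of the deposited scaling, 47.6% of sorafenib calls were higher, against 73.2% as deposited, and 44.7% of dipyridamole calls, against 58.2%. For both drugs the share was 45.1%, against 65.1%. The median of all genes shifted by -0.11 for sorafenib, -0.08 for dipyridamole, -0.19 for both drugs, -0.12 for the sorafenib by dipyridamole interaction and 0.18 for the SLC29A2 by dipyridamole interaction.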

How the data were processed

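Messenger RNA of 8 SK-Hep1 cultures was sequenced, with 1 library per condition. The deposited values are FPKM per gene, scaled by the authors to gene length and library size; GRCh38.p12 is the build in the submitters' processing notes, which list edgeR, HTSeq 0.6.1 and TopHat2 2.0 as tools without roles. Each table had 58310 lines, 8 of them without a gene identifier, which held no gene and were left out. Symbols and positions came from GENCODE 29, which matched 58039 of 58302 genes.

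Genes were kept at a mean FPKM of 1 or more. Values were transformed as log2(FPKM + 1), which understates the changes of low genes, and tested two-sided in limma 3.58.1 (R 4.3.3; trend between mean and variance), and p-values were adjusted by Benjamini-Hochberg across the 13899 genes. The script was tested on simulated data. Additive terms for SLC29A2 expression, sorafenib and dipyridamole gave the main effects, each interaction was added singly, and both drugs were compared with the control treatment in a model of cell type and 4 treatments. Whole reads were recovered from FPKM steps and GENCODE transcript lengths (93.97% of expressed genes whole in all libraries, to within 0.01 reads or a share of 1e-05), for depth and for a voom alternative. Read numbers cover counting error only.

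Named genes were the 9 members, RRM2B, SAMHD1, DGUOK and SLC29A2, up to 4 genes per pathway list with the smallest p, genes overlapping a member, and the 3 genes with the highest Pearson r to each member. Some genes this rule names are not reported here. The members and all lists were chosen with earlier results of these data known. Alternatives were the pseudocount, filter, scaling, trend, voom, other models and leaving out libraries.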

Additional observations from a re-analysis of the deposited data

Results flagged for a closer look

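For 5 genes the sorafenib difference had opposite signs with and without dipyridamole: in both kinds of cell it was higher with dipyridamole present and lower with it absent. The sorafenib by dipyridamole interaction on the log2(FPKM + 1) scale was 0.39 for RRM1, 0.33 for TYMS, 0.64 for TK1, 1.04 for DCK and 0.86 for DTYMK. The difference was tested with limma, and none of the 5 passed (adjusted p = 0.448 for RRM1, 0.564 for TYMS, 0.627 for TK1, 0.239 for DCK and 0.209 for DTYMK). In control cells some of the differences were near 0, at 0.02 for RRM1 and 0.06 for TYMS with dipyridamole and -0.02 for TYMS without it. Of all genes tested, 11.1% had the same sign pattern and 5.28% the opposite one. With size factors the pattern held for 2 of the 5, DCK and DTYMK.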

How the results depend on the processing

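No paired analysis was possible because each condition has 1 library and the labels carry no replicate numbers to use as a block. The library pairs of each factor come from the crossed design, and the other factors are terms of the model. RRM2, RRM1, TYMS and DUT kept their dipyridamole and both-drug calls, and RRM2 its sorafenib call, in every fit that left out 1 library. The members called numbered 1 for sorafenib (4 with all pairwise interactions, with TK2, DTYMK and CDA added; 1 to 2 with a library left out), 7 for dipyridamole (4 with no filter, where TK1, DTYMK and CDA had limma adjusted p = 0.0596, 0.0588 and 0.101; 6 to 7 with a library left out), 6 for both drugs (5 to 7 under the settings that used all libraries and with a library left out, 9 without both control-cell dipyridamole libraries) and 0 for the drug interaction (5 without both control-cell dipyridamole libraries). Over the values of single genes under all alternatives, 1369 kept direction and side of the threshold, 163 lost it, 22 gained it and 58 changed sign.

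The values that changed sign follow. With size factors sorafenib gave -0.10 for TYMS and -0.0479 for TK1, dipyridamole -0.035 for RRM2B, SLC29A2 expression 0.0761 for RRM1, 0.0086 for RRM2 and 0.0149 for CDA, the drug interaction -0.0432 for DUT, and both drugs -0.14 for TK2 and -0.0949 for SAMHD1. With voom sorafenib gave -0.0337 for TYMS. Without both control-cell dipyridamole libraries sorafenib gave -0.0183 for TYMS and -0.037 for DCK, dipyridamole -0.0475 for RRM2B, SLC29A2 expression 0.0273 for RRM2, -0.30 for TK1, 0.0662 for TK2, 0.17 for DCK and -0.0297 for DTYMK, and both drugs -0.37 for TK2 (limma, adjusted p = 0.0281). With 1 library left out, sorafenib ranged from -0.1127 to 0.0925 for RRM1, -0.0803 to 0.0941 for TYMS, -0.22 to 0.31 for TK1, -0.0472 to 0.38 for DCK and -0.15 to 0.0221 for DUT. SLC29A2 expression ranged from -0.12 to 0.0816 for RRM1, -0.0159 to 0.51 for TK1, -0.29 to 0.14 for DCK, -0.13 to 0.18 for DTYMK and -0.29 to 0.0922 for CDA. The drug interaction ranged from -0.20 to 0.0168 for RRM2 and -0.13 to 0.29 for DUT, and both drugs from -0.31 to 0.43 for TK2, -0.41 to 0.0946 for DCK and -0.0405 to 0.26 for SAMHD1. The cause was not tested.

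Over all genes the sorafenib calls were 1127, against 4839 with all pairwise interactions, 1755 with the drug interaction, 136 with no filter, 301 without both control-cell dipyridamole libraries and 272 to 914 with 1 library left out. Dipyridamole calls were 4173, against 7411 with all pairwise interactions and 2622 with no filter. Both-drug calls were 5385, against 8439 without both control-cell dipyridamole libraries and 2946 to 5139 with 1 library left out. Drug interaction calls were 12, against 0 to 24 under the settings that used all libraries, 0 to 2 with 1 library left out and 3514 without both control-cell dipyridamole libraries. The voom fit on recovered reads called 1481 genes for sorafenib and 4123 for dipyridamole. The SLC29A2 by dipyridamole interaction could not be estimated without the control-cell dipyridamole libraries. For both drugs against the control treatment, RRM2B kept its call in 3 of the 8 fits that left out 1 library, and DGUOK in 5 of 8.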
